A study of Mus musculus with 8 samples.

Results

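The genes described here are those whose levels with both Runx1 constructs lay to the same side of the other libraries in a mouse pro-T cell line. A gene was counted as shared when its contrast passed edgeR's quasi-likelihood test at an adjusted p of 0.05 and each of the 4 Runx1 libraries lay on the same side of each of the 4 other libraries. The contrast was the mean of the Runx1 WT and Runx1 DN groups minus the mean of the Satb1 and mock groups, with equal weight for the 4 group means. Of 12699 genes tested, 4262 were shared, 2181 of them higher and 2081 lower in the Runx1 libraries. A call for each construct on its own was not required. Each construct was called against both Satb1 and mock in 48% of those higher and 42.9% of those lower. Interferon-inducible, class I antigen presentation and lysosomal genes were among those higher, and the recombinase genes, Il2ra, Myc and genes of ribosome assembly, DNA replication and glycolysis among those lower.

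Scid.adh.2c2 cells, a pro-T line that the study used to ask how PU.1 redirects other factors, gave 2 RNA libraries in each of 4 groups. One group carried a retrovirus with wild-type Runx1 (Runx1 WT), another a retrovirus with the construct labelled Runx1 DN, another Satb1 and the last a mock vector, and all 4 vectors also carried GFP. DN is not written out in the labels. It commonly means dominant negative for Runx constructs, and the piece of Runx1 that this one encodes is not stated. All 8 libraries came from the same cell line, sorted 2 days after infection, with 300000 cells a library. Nothing in the labels ties the libraries of a group to separate cultures, so the p-values here reflect only how these samples vary, and that spread may be technical.

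Runx1 is a DNA-binding transcription factor that pairs with the non-DNA-binding partner Cbfb and can activate or repress its targets through separate parts of the protein. It binds DNA through its Runt domain, recruits corepressors of the Groucho/TLE family through its C-terminal end, and is used throughout early T cell development. Dominant-negative Runx constructs commonly keep the DNA-binding part without the activating part, so they can occupy Runx sites without the full protein's function. Satb1 is a chromatin-organizing protein of developing T cells, and served here as a second transduced factor beside the mock vector.

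Library totals ran from 23624498 to 33093330 counts, and a count of 0 allows a level of up to 3 counts, or 0.0953 to 0.125 CPM by library. CPM are read counts divided by the library total and TMM factor in edgeR, not per length, so levels of different genes are not compared. Such floors cover counting error only. The T lineage markers summed to 8520 and 8840 CPM in Runx1 WT libraries, 2310 in each Runx1 DN library, 5830 and 6040 in Satb1 libraries and 5340 and 5460 in mock libraries. In bulk samples such as these, fewer cells of a type and less RNA per cell cannot be told apart. The first principal component (61% of the variance of log2 CPM) set the Runx1 WT libraries apart, the second (27.8%) the Runx1 DN libraries, and the third (5.34%) split Satb1 from mock.

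Levels of the transduced genes followed the labels. Runx1 (mm9 chromosome 16, 92601711 to 92826319, minus strand, NM_001111021) gave 214392 and 232610 counts in Runx1 WT libraries, 509871 and 673390 in Runx1 DN libraries, 5263 and 5791 in Satb1 libraries and 3643 and 4054 in mock libraries. These are totals of the endogenous gene and whatever part of each construct the exon counts cover, so the DN level cannot be compared with the WT level as protein. Satb1 (NM_001163631, chromosome 17, 51875512 to 51965913, minus strand, mm9) stood at 298 and 307 CPM with Runx1 WT, 211 and 204 with Runx1 DN, 3580 and 3980 in the Satb1 libraries and 385 and 377 in mock. Endogenous Satb1 was thus also below mock with both constructs, by -0.33 ± 0.08 log2 (SE, adjusted p = 0.0032, edgeR's quasi-likelihood test) with Runx1 WT and by -0.88 ± 0.08 (adjusted p = 2.02e-05) with Runx1 DN.

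The shared response was large in both directions. The contrast alone called 4588 genes higher (36.1%) and 3942 lower (31.0%), and the 2 sides were apart for 2217 genes higher (17.5%) and 2110 lower (16.6%) whatever their test result. Both conditions together gave the 2181 genes higher (17.2%) and 2081 lower (16.4%), so 47.5% of the calls higher and 52.8% of the calls lower had all 4 Runx1 libraries on 1 side. Among the shared genes, 883 of those higher and 269 of those lower differed at least 2-fold in the contrast, and the median log2 fold change was 0.803 for those higher and -0.563 for those lower, against 0.056 over all genes tested. With library size alone as the scaling the shared genes were 2869 higher and 1338 lower, and with quantile normalization 1676 higher and 2124 lower, so the split between the directions depends on the scaling. A model with only 2 means, which counts the gap between the constructs as spread, left 1426 higher and 773 lower.

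A stricter reading asked for a call in each of the 4 comparisons of a Runx1 group with Satb1 or mock. Among the shared genes, 48% of those higher and 42.9% of those lower met this reading. It held for 1046 genes higher (8.24%) and 894 lower (7.04%), although the count of genes lower was 450 without the first Runx1 DN library, 591 without the first mock library and 557 without the second Satb1 library. The count of genes higher ran from 742 to 1000 when single libraries were left out. Without the second mock and the second Satb1 library together, the counts were 645 higher and 388 lower.

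Comparisons with no library in common were then set side by side. Fitted alone, Runx1 WT against mock called 4388 genes higher (34.6%) and 4320 lower (34.0%), and Runx1 DN against Satb1 called 2520 higher (19.8%) and 2264 lower (17.8%). They shared 1339 genes higher, or 30.5% of the Runx1 WT calls and 53.1% of the Runx1 DN calls, and 1269 genes lower, or 29.4% and 56.1% of those lists. A further 579 genes were higher with Runx1 WT against mock and lower with Runx1 DN against Satb1, and 336 the reverse. The other pairing gave similar shares. Runx1 WT against Satb1 called 4487 genes higher (35.3%) and 4301 lower (33.9%), Runx1 DN against mock called 2331 higher (18.4%) and 2142 lower (16.9%), and 1323 genes higher and 1258 lower were common to both. These were 29.5% and 29.2% of the Runx1 WT lists and 56.8% and 58.7% of the Runx1 DN lists. A further 552 genes were higher with Runx1 WT against Satb1 and lower with Runx1 DN against mock, and 306 the reverse.

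**Figure D1:**
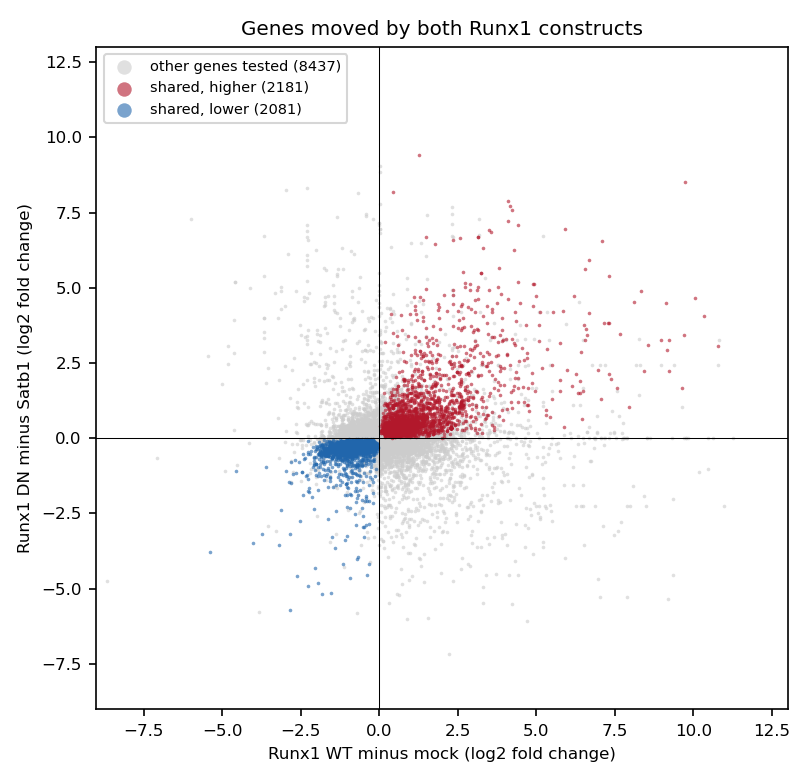
Log2 fold change of Runx1 DN minus Satb1 (vertical axis) against that of Runx1 WT minus mock (horizontal axis), 1 point per gene, 12699 genes, both taken from the fit to all 8 libraries. The 2181 shared genes higher lie to the upper right and the 2081 lower to the lower left. Other genes with Runx1 WT values far above 0 lie below the horizontal line, with Runx1 DN below Satb1. The axes use different comparison groups, so such a position alone does not show opposite moves against 1 group.

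The boundary of the rule fell among small differences as well as among genes that only Runx1 WT moved strongly. Just inside it on the higher side were Zfp335 (106 and 99.7 CPM with Runx1 WT, 101 and 93.4 with Runx1 DN, 85.7 and 81.0 with Satb1, 93.4 and 84.0 in mock) and Katnal1. Just outside were Abhd6 and Saa2, which had 6.03 and 9.86 CPM and 52.1 and 42.4 CPM in the Runx1 WT libraries but no count in the first Runx1 DN library and none in the Satb1 and mock libraries. On the lower side Chchd4 and Lias lay just inside and Wdr46 and Ube3c just outside, with contrasts of -0.85, -0.22, -0.51 and -0.35 on the log2 scale.

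Among the genes that rose, those with the widest gaps between the 4 Runx1 libraries and the others, at a level of at least 2 CPM, included Runx1 itself, Sulf2, Plac8, Apol9a, Apol9b, Bnc2, Ehd2, Ifi44l, Papln, Ifi44 and Card6. Sulf2 (NM_001252578, chromosome 2, 165899399 to 165980785, minus strand, mm9) encodes an extracellular sulfatase that removes sulfate from heparan sulfate chains. It had 50.5 and 56.0 CPM with Runx1 WT and 44.1 and 52.7 CPM with Runx1 DN, against 1.03 and 1.27 CPM with Satb1 and 0.303 and 0.351 CPM in mock. The sides were far apart and the constructs did not differ detectably, with a log2 fold change of 6.35 ± 0.12 (SE, adjusted p = 1.44e-09, edgeR's quasi-likelihood test) and a Runx1 WT minus Runx1 DN difference of 0.14 (95% interval -0.10 to 0.37).

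Plac8 (NM_139198, chromosome 5, 100982752 to 101001224, minus strand, mm9), a small cysteine-rich protein of lymphoid and myeloid cells, had 11.6 and 21.5 CPM with Runx1 WT and 21.2 CPM in both Runx1 DN libraries, against 0.206 and 0.477 CPM with Satb1 and 0.0756 and 0.223 CPM in mock. The log2 fold change was 6.30 ± 0.31 (adjusted p = 1.52e-07, edgeR), or 7.16 without the second Satb1 and mock libraries, and the constructs did not differ detectably (Runx1 WT minus Runx1 DN -0.36, 95% interval -0.92 to 0.20). In all, 10 shared genes had no count in any Satb1 or mock library.

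Bnc2 (basonuclin 2, a zinc finger protein) had 6.07 and 9.90 CPM with Runx1 WT and 9.57 and 14.5 CPM with Runx1 DN, against 0.412 and 0.445 CPM with Satb1 and 0.416 and 0.639 CPM in mock. Papln (papilin, an extracellular matrix protein) had 14.8 and 15.5 CPM with Runx1 WT and 21.2 and 25.7 CPM with Runx1 DN, against 1.03 and 0.890 CPM with Satb1 and 1.85 and 1.60 CPM in mock. Card6, a caspase recruitment domain protein, had 50.1 and 57.2 CPM with Runx1 WT and 25.2 and 29.3 CPM with Runx1 DN, against 3.57 and 4.13 CPM with Satb1 and 1.29 and 2.68 CPM in mock. All 3 kept the sides well apart, with log2 fold changes of 4.34 ± 0.26, 3.87 ± 0.12 and 3.77 ± 0.15. Papln rose more with Runx1 DN (Runx1 WT minus Runx1 DN -0.63, adjusted p = 0.00136) and Card6 more with Runx1 WT (0.98, adjusted p = 0.00056).

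Ehd2, a membrane-shaping ATPase of caveolae, was the least even of these 11 genes. It had 41.9 and 41.2 CPM with Runx1 WT and 1.41 and 2.12 CPM with Runx1 DN, against 0.103 and 0.0318 CPM with Satb1 and 0.0756 and 0 CPM in mock, so both constructs lay above the other groups but 4.54 log2 units (95% interval 4.07 to 5.0) from each other. Its contrast of 7.36 ± 0.31 became 8.94 without the first mock library. The remaining 4 were interferon-inducible genes. Apol9a and Apol9b, apolipoprotein L genes that are near-identical copies whose counts may hold each other's reads, rose by 5.74 ± 0.27 and 5.95 ± 0.30. Apol9a had 18.9 and 26.7 CPM with Runx1 WT and 25.6 and 41.9 CPM with Runx1 DN, against 0.378 and 0.127 CPM with Satb1 and 0.870 and 1.25 CPM in mock. Ifi44 had 40.9 and 77.4 CPM with Runx1 WT and 26.2 and 45.2 CPM with Runx1 DN, against 0.996 and 0.953 CPM with Satb1 and 1.85 and 3.54 CPM in mock. Ifi44l, at 0.790 to 5.32 CPM in Runx1 libraries and at most 0.0378 CPM elsewhere, gave 6.08 ± 0.66, and 7.19 without the second Satb1 library.

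**Figure D2:**
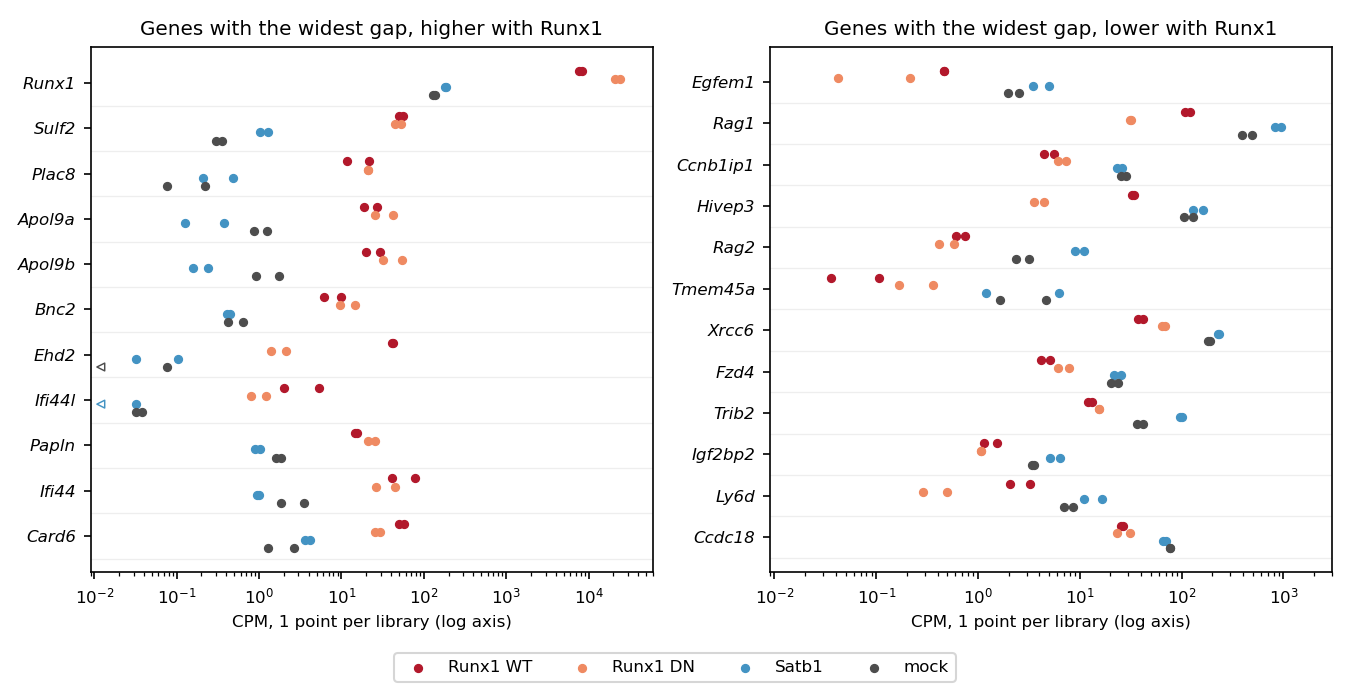
CPM on a log axis of 11 genes higher (left) and 12 lower (right) with the widest gaps between the Runx1 libraries and the others, 1 point per library, coloured by group, with libraries without a count drawn as open triangles at the left edge. For every gene all 4 Runx1 points lie on 1 side of the 4 Satb1 and mock points. Sulf2, at 44.1 to 56.0 CPM, shows overlapping constructs, and Ehd2, at 41.9 and 41.2 CPM with Runx1 WT and 1.41 and 2.12 CPM with Runx1 DN, shows constructs far apart.

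Most interferon response genes rose with both constructs. Interferons signal through Jak kinases to transcription factors that bind a repeated GAAA element in the promoters of antiviral genes. All 34 listed members were tested, 30 were shared and higher and none was shared and lower, against 17.2% and 16.4% over all genes. The median of the contrast was 2.14 on the log2 scale, against 0.06 over all genes. Of the 30, 22 were higher with Runx1 WT than with Runx1 DN, 1 (Gbp3) the reverse, and 7 did not pass that test. The members that were called but not apart were Bst2, Mx1, Mx2 and Oas3, named here after their values were seen. Against mock alone, Bst2 and Mx2 were called lower with Runx1 DN (-0.27, adjusted p = 0.0157, and -0.63, adjusted p = 0.0428) and higher with Runx1 WT (1.76 and 1.59). In Mx1 the Runx1 DN libraries, at 15.3 and 29.3 CPM, lay among the Satb1 (20.7 and 19.8 CPM) and mock (31.9 and 28.4 CPM) libraries.

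Zbp1, a cytoplasmic nucleic acid sensor, had 339 and 387 CPM with Runx1 WT and 107 and 126 CPM with Runx1 DN, against 13.6 and 15.7 CPM with Satb1 and 44.5 and 45.3 CPM in mock (log2 fold change 3.0 ± 0.08, adjusted p = 9.56e-09, edgeR). Irf7, the transcription factor that amplifies type I interferon production, had 289 and 331 CPM with Runx1 WT and 45.4 and 59.7 CPM with Runx1 DN, against 8.28 and 10.2 CPM with Satb1 and 26.6 and 29.9 CPM in mock. Both genes stepped down in the order Runx1 WT, Runx1 DN, mock, Satb1. Gbp2, an interferon-inducible GTPase, instead gave 248 and 303 CPM with Runx1 WT and 280 and 267 CPM with Runx1 DN, against 34.2 and 44.8 CPM with Satb1 and 81.2 and 69.2 CPM in mock, and its Runx1 WT minus Runx1 DN difference was 0.01 (95% interval -0.28 to 0.30). Gbp2 thus did not differ detectably between the constructs. Xaf1, a proapoptotic interferon target, rose by 2.22 ± 0.10.

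The interferon genes whose promoters are printed here were chosen after their values were seen. Isg15, a ubiquitin-like antiviral protein, had 220 and 238 CPM with Runx1 WT and 137 and 183 CPM with Runx1 DN, against 20.3 and 28.2 CPM with Satb1 and 35.7 and 55.3 CPM in mock. Igtp, a GTPase of the immunity-related family, had 451 and 499 CPM with Runx1 WT and 442 and 475 CPM with Runx1 DN, against 50.8 and 81.4 CPM with Satb1 and 198 and 178 CPM in mock. Both kept all 4 Runx1 libraries above the others, and Igtp did not differ detectably between the constructs (Runx1 WT minus Runx1 DN 0.05, adjusted p = 0.803, edgeR).

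Satb1 cells were themselves lower than mock in this list, with a median of -1.01 and 21 of 34 members called lower, against 3.09% called lower and 3.28% called higher over all genes. The Runx1 DN effect was smaller against mock (median 0.98) than against Satb1 (2.03), and likewise for Runx1 WT (2.35 against mock and 3.20 against Satb1). Within the Runx1 groups the second library was above the first by a median of 0.33 with Runx1 WT and 0.42 with Runx1 DN, and by 0.13 with Satb1 and 0.19 in mock. The summed level of the list was 7620 and 9250 CPM with Runx1 WT, 4070 and 4770 with Runx1 DN, 1180 and 1360 with Satb1 and 2260 and 2280 in mock.

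**Figure D3:**
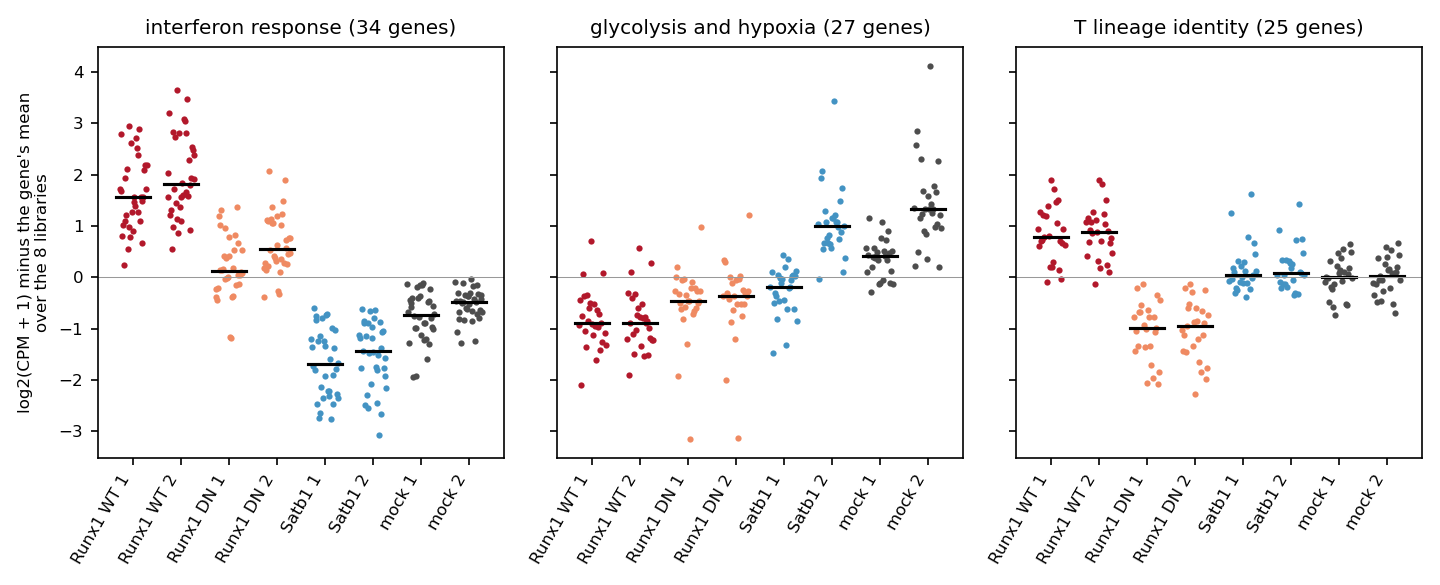
Log2(CPM + 1) minus the gene's mean over the 8 libraries, 1 point per gene in each library, with the median of the list as a bar, for 34 interferon response genes, 27 glycolysis and hypoxia genes and 25 T lineage genes. Interferon genes are above their means in the Runx1 WT libraries and below in the Satb1 and mock libraries, glycolysis genes are low with both constructs and higher in the second Satb1 and mock libraries than in the first, and T lineage genes are high with Runx1 WT and low with Runx1 DN.

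Promoter sequences of members that rose or fell are shown so that the letters can be set beside the values. They are 60-base stretches of the 250 bases before the start site listed first for the gene in RefSeq (GRCm38.p6), read along the gene's strand. Capitals mark matches to GAAA, any 2 bases, GAAA, or its complement. Isg15 (chr4:156200852-156200911, minus strand), Gbp2 (chr3:142620577-142620636, plus strand), Igtp (chr11:58199495-58199554, plus strand) and Apol9a (chr15:77411101-77411160, minus strand) are interferon-inducible genes that were shared and higher.
Isg15: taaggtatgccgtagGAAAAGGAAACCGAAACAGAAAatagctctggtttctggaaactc
Gbp2: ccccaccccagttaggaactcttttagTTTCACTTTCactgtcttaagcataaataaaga
Igtp: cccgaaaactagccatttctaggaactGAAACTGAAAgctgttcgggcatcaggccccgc
Apol9a: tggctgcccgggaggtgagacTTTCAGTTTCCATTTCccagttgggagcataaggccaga

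The next set shows stretches with the letters of a Runx site, TGTGGT or TGCGGT or their complements, in capitals, for 2 genes that rose and 2 that fell. Sulf2 (chr2:166155828-166155887, minus strand) and Plac8 (chr5:100572274-100572333, minus strand) rose, and Rag1 (chr2:101649567-101649626, minus strand) and Il2ra (chr2:11642694-11642753, plus strand) fell.
Sulf2: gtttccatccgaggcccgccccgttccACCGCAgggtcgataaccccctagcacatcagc
Plac8: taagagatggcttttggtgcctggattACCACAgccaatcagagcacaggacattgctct
Rag1: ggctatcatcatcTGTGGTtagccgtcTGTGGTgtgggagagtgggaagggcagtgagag
Il2ra: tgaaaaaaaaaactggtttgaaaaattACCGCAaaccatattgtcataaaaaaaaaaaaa

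Over the 9643 tested genes with a listed window, the repeated GAAA pattern occurred on either strand in 2.83% of windows, in 5.01% for shared genes higher, 2.44% for shared genes lower and 2.36% for the other genes. In the interferon list 13 of 25 windows held it. Runx letters occurred in 17.2% of windows of shared genes higher, 18.1% of those lower, 18.4% of the other genes and 18.2% of all. The share with Runx letters in this window was thus no higher for shared genes than for the rest. These are matches of letters, and binding was not measured.

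Class I antigen presentation rose beside the interferon genes. These genes encode the peptide-presenting heavy chains, the light chain B2m, the peptide transporter and the proteasome subunits that make the peptides. Of 17 members tested, 15 were shared and higher and none was lower, against 17.2% and 16.4% over all genes. The list's median was 1.51. The exceptions, named after their values were seen, were Calr (0.04 ± 0.06, not called) and Erap1 (0.28 ± 0.07, called but not apart). H2-K1, a classical heavy chain, had 384 and 397 CPM with Runx1 WT and 143 and 138 CPM with Runx1 DN, against 67.5 and 69.6 CPM with Satb1 and 63.5 and 71.4 CPM in mock. H2-T23, the nonclassical Qa-1 heavy chain, had 252 and 263 CPM with Runx1 WT and 93.5 and 82.7 CPM with Runx1 DN, against 27.3 and 32.4 CPM with Satb1 and 34.9 and 37.2 CPM in mock. H2-D1 and H2-T22 rose by 1.92 ± 0.06 and 1.49 ± 0.05, but their rows overlap those of H2-L and H2-T9, and reads of near-identical heavy chain genes cannot be assigned with certainty. In 14 of the 15 the level with Runx1 WT was above that with Runx1 DN, and the median differed little between Satb1 and mock (-0.13).

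Of 10 class II genes tested, 4 were shared and higher, against 17.2% over all genes. They were Ciita, the class II transactivator, Cd74, the invariant chain, and the chains H2-Aa and H2-Eb1. Their levels were low. Ciita had 3.46 and 5.43 CPM with Runx1 WT and 1.08 and 1.22 CPM with Runx1 DN, against 0.241 and 0.0953 CPM with Satb1 and 0.227 and 0.287 CPM in mock (3.42 ± 0.31). Cd74 had 21.5 and 23.4 CPM with Runx1 WT and 2.70 and 2.16 CPM with Runx1 DN, against 0.893 and 0.795 CPM with Satb1 and 0.870 and 1.5 CPM in mock. H2-Aa stood at 1.21 to 1.61 CPM with Runx1 WT and 0.250 to 0.288 CPM with Runx1 DN, and its contrast of 3.76 ± 0.52 became 5.32 without the second mock library.

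Lysosomal genes rose as a further group. Of 22 tested, 14 were shared and higher and none was lower, against 17.2% and 16.4% over all genes. The list's median was 0.78. Psap, the precursor of the saposins that help degrade sphingolipids, had 621 and 608 CPM with Runx1 WT and 1100 and 959 CPM with Runx1 DN, against 204 and 215 CPM with Satb1 and 205 and 218 CPM in mock. Psap was the 1 shared lysosomal gene called higher with Runx1 DN than with Runx1 WT (Runx1 WT minus Runx1 DN -0.74, 95% interval -0.93 to -0.56). Lamp1, a lysosomal membrane glycoprotein, had 318 and 310 CPM with Runx1 WT and 178 and 173 CPM with Runx1 DN, against 121 and 117 CPM with Satb1 and 126 and 124 CPM in mock. The proteases Ctsd (1.05 ± 0.05) and Ctsa (1.03 ± 0.05) also rose. The E-box letters CACGTG occurred in 6 of 17 lysosomal windows, 8.33% of windows of shared genes higher and 8.21% of all windows.

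Genes that restrain the cell cycle or promote cell death rose in part. Of 15 p53 targets tested, 6 were shared and higher and 1, Trp53 itself, was lower (median 0.54), against 17.2% and 16.4% over all genes. Cdkn1a, the p21 inhibitor of cyclin-dependent kinases, had 116 and 82.6 CPM with Runx1 WT and 114 and 76.7 CPM with Runx1 DN, against 30.7 and 38.4 CPM with Satb1 and 37.9 and 43.7 CPM in mock. Trp53inp1, a stress-induced partner of p53, had 295 and 335 CPM with Runx1 WT and 332 and 315 CPM with Runx1 DN, against 149 and 155 CPM with Satb1 and 84.3 and 85.2 CPM in mock. Neither gene differed detectably between the constructs (Runx1 WT minus Runx1 DN 0.06, 95% interval -0.39 to 0.50, and -0.04, -0.21 to 0.13). Among cell cycle inhibitors and D cyclins, 5 of 16 were shared and higher and 2 lower, against 17.2% and 16.4% over all genes. Cdkn1c (p57) rose by 2.05 ± 0.21 and Tob1, an antiproliferative factor, by 0.48 ± 0.06, while Cdk6, the kinase partner of D cyclins, fell by 1.03 on the log2 scale.

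In the Bcl2 family, 5 of 11 members tested were shared and higher and 1 lower (median 0.39), against 17.2% and 16.4% over all genes. The BH3-only killers Bbc3 (1.41 ± 0.11) and Bmf (1.07 ± 0.09) and the survival protein Bcl2l1 (0.73 ± 0.06) rose, while Bid, another BH3-only protein, fell by 0.92 on the log2 scale. Members that promote and that oppose cell death were both among those that rose.

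Cytokine signalling genes gave 6 of 20 members shared and higher and 1 lower (median 0.19), against 17.2% and 16.4% over all genes. Stat3, which transmits signals of the interleukin 6 family, had 404 and 434 CPM with Runx1 WT and 217 and 211 CPM with Runx1 DN, against 124 and 138 CPM with Satb1 and 157 and 172 CPM in mock. Il2rg, the common gamma chain, had 263 and 275 CPM with Runx1 WT and 105 and 107 CPM with Runx1 DN, against 92.6 and 93.5 CPM with Satb1 and 90.2 and 89.7 CPM in mock, a contrast of 0.88 ± 0.04 with a Runx1 WT minus Runx1 DN difference of 1.34 (95% interval 1.21 to 1.48), and its adjusted p was 0.0643 in the model with 2 means. The member that fell was Il2ra (NM_008367, chromosome 2, 11564419 to 11614821, plus strand, mm9), the interleukin 2 receptor alpha chain CD25 that marks pro-T cells. It had 263 and 275 CPM with Runx1 WT and 70.9 and 70.1 CPM with Runx1 DN, against 667 and 688 CPM with Satb1 and 550 and 547 CPM in mock. The drop was larger with Runx1 DN (Runx1 WT minus Runx1 DN 1.93, 95% interval 1.78 to 2.08).

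Of 19 thymocyte maturation and migration genes, 5 were shared and higher and 1, Satb1, was lower, against 17.2% and 16.4% over all genes. S1pr1, the receptor by which T cells leave the thymus, had 21.3 and 31.8 CPM with Runx1 WT and 1.79 and 2.12 CPM with Runx1 DN, against 0.0344 and 0 CPM with Satb1 and 0.0378 and 0.319 CPM in mock. Its contrast of 6.82 ± 0.42 became 7.92 without the second mock library and 7.94 without the first Satb1 library. Zbtb7b (ThPOK), a regulator of CD4 T cell identity, had 154 and 151 CPM with Runx1 WT and 154 and 122 CPM with Runx1 DN, against 57.8 and 58.5 CPM with Satb1 and 93.4 and 88.4 CPM in mock. Of 13 T cell receptor feedback genes, 5 were shared and higher, against 17.2% over all genes, although 2 were with quantile normalization. Among them Pdcd1 (PD-1) had 16.8 and 26.8 CPM with Runx1 WT and 0.499 and 0.432 CPM with Runx1 DN, against 0.0344 and 0 CPM with Satb1 and 0 and 0.0639 CPM in mock. Egr1, an immediate early factor, had a contrast of 1.99 ± 0.15, with 3.14 above mock for Runx1 WT and 0.44 for Runx1 DN (adjusted p = 0.142). Dusp1 rose by 1.17 ± 0.14 and Dusp6 by 0.92 ± 0.13, both being phosphatases of MAP kinases, and Dusp6 with Runx1 DN did not pass against Satb1 (0.43, adjusted p = 0.084). The Pdcd1 contrast of 6.81 ± 0.61 became 8.36 without the second mock library and 7.92 without the first Satb1 library.

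Genes that fell did so over a narrower range, with 17 of 2081 having a gap of at least 1 on the log2 scale, against 195 of 2181 higher. The 12 with the widest gap were Egfem1, Rag1, Ccnb1ip1, Hivep3, Rag2, Tmem45a, Xrcc6, Fzd4, Trib2, Igf2bp2, Ly6d and Ccdc18. Rag1 (NM_009019, chromosome 2, 101478411 to 101489689, minus strand, mm9), with Rag2 the recombinase that cuts T cell receptor genes for rearrangement, had 121 and 108 CPM with Runx1 WT and 31.9 and 31.1 CPM with Runx1 DN, against 942 and 827 CPM with Satb1 and 490 and 396 CPM in mock (-3.38 ± 0.08, adjusted p = 9.39e-09, edgeR). Rag2 had 0.607 and 0.750 CPM with Runx1 WT and 0.416 and 0.576 CPM with Runx1 DN, against 8.93 and 11.1 CPM with Satb1 and 2.38 and 3.19 CPM in mock. Its row overlaps a row on the other strand that also fell (-2.39), and the counts do not separate strands. Both genes were higher with Satb1 than in mock (1.00, adjusted p = 0.000397, and 1.84, adjusted p = 0.000422).

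Xrcc6 (NM_010247, chromosome 15, 81846799 to 81870514, plus strand, mm9), the Ku70 protein of end joining that repairs DNA breaks including those of recombination, had 41.5 and 37.3 CPM with Runx1 WT and 64.2 and 68.5 CPM with Runx1 DN, against 233 and 226 CPM with Satb1 and 190 and 182 CPM in mock. The 4 Runx1 libraries reached at most 68.5 CPM, and the contrast was -2.01 ± 0.05. Hivep3, a zinc finger protein reported to bind recombination signal sequences, had 32.2 and 33.9 CPM with Runx1 WT and 3.58 and 4.46 CPM with Runx1 DN, against 162 and 130 CPM with Satb1 and 128 and 105 CPM in mock, and its fall was larger with Runx1 DN. Trib2, a pseudokinase, had 13.3 and 12 CPM with Runx1 WT and 15.5 and 15.3 CPM with Runx1 DN, against 95.5 and 101 CPM with Satb1 and 36.3 and 42.0 CPM in mock.

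Ccnb1ip1, a ubiquitin ligase, and Fzd4, a Wnt receptor, fell by 2.15 and 2.00 on the log2 scale, each somewhat further with Runx1 WT (Runx1 WT minus Runx1 DN -0.42, adjusted p = 0.0322, and -0.58, adjusted p = 0.0137). Ccdc18 fell by 1.43 with no detectable difference between the constructs (-0.05, 95% interval -0.32 to 0.21). Ly6d, a surface marker of early lymphoid progenitors, had 3.25 and 2.07 CPM with Runx1 WT and 0.499 and 0.288 CPM with Runx1 DN, against 16.4 and 11 CPM with Satb1 and 8.58 and 6.96 CPM in mock. Egfem1, at 0.0416 to 0.464 CPM in Runx1 libraries and 1.98 to 4.95 CPM elsewhere, gave -3.59 ± 0.29, and -4.40 without the second Runx1 DN library. Tmem45a differed between the replicates on the other side (1.2 and 6.23 CPM with Satb1, 1.63 and 4.66 CPM in mock), and its contrast of -4.59 ± 0.75 became -3.77 without the second Satb1 library.

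Of 13 pre-TCR and recombination genes, the recombinase pair fell and 3 members rose, against 17.2% shared and higher and 16.4% lower over all genes. Spib, an Ets factor, had 56.2 and 52.7 CPM with Runx1 WT and 4.24 and 6.48 CPM with Runx1 DN, against 1.44 and 1.40 CPM with Satb1 and 1.02 and 0.990 CPM in mock. Id2, an inhibitor of E proteins, had 255 and 296 CPM with Runx1 WT and 85.5 and 80.8 CPM with Runx1 DN, against 64.1 and 76.8 CPM with Satb1 and 55.8 and 67.2 CPM in mock. Both were higher with Runx1 WT than with Runx1 DN, by 3.33 and 1.73 on the log2 scale, and Id2 had an adjusted p of 0.0563 in the model with 2 means and 0.134 for Runx1 DN against Satb1. In the Runx family and cofactors list, with 12 tested, the coactivator gene Ep300 (0.52 ± 0.05) rose. The corepressor gene Tle2 had a contrast of 2.22 ± 0.08, but was 2.90 above mock with Runx1 WT and 0.27 with Runx1 DN (adjusted p = 0.0911), and Satb1 was below mock (-1.27). In the same list, the partner gene Cbfb fell by 0.38 on the log2 scale, at 138 and 142 CPM with Runx1 WT and 115 and 107 CPM with Runx1 DN, against 166 and 163 CPM with Satb1 and 166 and 155 CPM in mock.

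Genes of growth and division also fell, and further with Runx1 WT than with Runx1 DN. Myc, the transcription factor that drives ribosome production and cell growth, had 149 and 130 CPM with Runx1 WT and 515 and 458 CPM with Runx1 DN, against 665 and 661 CPM with Satb1 and 698 and 655 CPM in mock (-1.36 ± 0.06, and adjusted p = 0.104 in the model with 2 means). Of 25 nucleolar ribosome assembly genes, 22 were shared and lower and none was higher, against 16.4% and 17.2% over all genes. The list's median was -0.94, but 1 was shared and lower in the model with 2 means. Npm1, a nucleolar chaperone, had 582 and 538 CPM with Runx1 WT and 1250 and 1380 CPM with Runx1 DN, against 1990 and 2070 CPM with Satb1 and 2000 and 2040 CPM in mock. Gnl3 and Dkc1, further nucleolar proteins, fell by 1.23 and 1.17, with adjusted p of 0.0669 and 0.0603 in the model with 2 means. All 22 were lower with Runx1 WT than with Runx1 DN, and the list's median against mock was -1.64 with Runx1 WT and -0.31 with Runx1 DN.

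Of 28 ribosomal protein genes, 24 were shared and lower (median -0.56), although 8 were with quantile normalization and 12 with 2 means. All 24 fell more with Runx1 WT, and the list's median against mock was -0.84 with Runx1 WT and -0.31 with Runx1 DN. Of the 28, 12 were called lower in every comparison of a Runx1 group with Satb1 or mock. With quantile normalization the Runx1 DN medians were -0.07 against mock and -0.02 against Satb1, and with library size alone -0.22 and -0.16. The size of the fall with Runx1 DN thus depends on the scaling. Rpl3 had 926 and 829 CPM with Runx1 WT and 1510 CPM in both Runx1 DN libraries, against 1980 and 2200 CPM with Satb1 and 1970 and 2160 CPM in mock. The other members named by the rule, Rps4x, Rpl5 and Rpl6, fell by 0.78, 0.76 and 0.68 on the log2 scale. Copies of such genes can share reads, so these levels are uncertain to that extent.

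Of 28 S phase genes, 21 were shared and lower, against 16.4% over all genes, and 2 were in the model with 2 means. All 21 fell more with Runx1 WT, and the list's median against mock was -1.21 with Runx1 WT and -0.24 with Runx1 DN. Mcm3, a subunit of the replicative helicase, had 116 and 109 CPM with Runx1 WT and 265 and 290 CPM with Runx1 DN, against 366 and 379 CPM with Satb1 and 323 and 331 CPM in mock. Pole, Cdc6 and Rrm1, which serve DNA synthesis, the licensing of origins and nucleotide supply, fell by 1.06, 0.96 and 0.94. The adjusted p of these 4 S phase genes ran from 0.07 to 0.0962 in the model with 2 means. Of 25 G2/M genes, 12 were shared and lower, against 16.4% over all genes. But the number of G2/M genes shared and lower was 4 with library size alone, 3 with quantile normalization and none with 2 means. Their median with Runx1 DN against mock was -0.06, and 0.02 and 0.03 under the first pair of settings, so the direction with Runx1 DN rests on the scaling. Cdk1, the mitotic kinase, had 64.4 and 58.7 CPM with Runx1 WT and 147 and 153 CPM with Runx1 DN, against 160 and 169 CPM with Satb1 and 155 and 159 CPM in mock. Its adjusted p was 0.513 for Runx1 DN against mock, and 0.184 for the contrast in the model with 2 means.

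Glycolytic and hypoxia-responsive genes fell with both constructs. Of 27 tested, 14 were shared and lower and none was higher (median -1.43), against 16.4% and 17.2% over all genes. Ldha, which makes lactate from pyruvate, had 534 and 460 CPM with Runx1 WT and 846 and 821 CPM with Runx1 DN, against 1340 and 2590 CPM with Satb1 and 1990 and 2960 CPM in mock. Pgk1, a glycolytic kinase, had 297 and 279 CPM with Runx1 WT and 527 and 554 CPM with Runx1 DN, against 809 and 2230 CPM with Satb1 and 1490 and 2540 CPM in mock. Tpi1 fell by 1.48 and Pdk1, which limits pyruvate entry to mitochondria, by 1.66 (adjusted p = 0.0532 in the model with 2 means). In these genes the second Satb1 and mock libraries stood well above the first, by a median over the list of 1.19 with Satb1 and 0.79 in mock, and by -0.09 with Runx1 WT and 0.04 with Runx1 DN. Within the libraries numbered 1 the median contrast was -0.78 and within those numbered 2 it was -1.85. Without the second Satb1 and mock libraries the median contrast of the list was -0.78, and the Pgk1 contrast was -1.48.

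Oxidative phosphorylation genes were lower by a small amount, with 13 of 24 shared and lower (median -0.28), against 16.4% over all genes. The number was 7 with library size alone, 6 with quantile normalization and 3 with 2 means. The list's median against mock was -0.5 with Runx1 WT and -0.1 with Runx1 DN. Against mock, 6 of the 24 were called lower with Runx1 DN, and that comparison fitted alone called 16.9% of all genes lower. In all 4 comparisons, 4 of the 24 were called lower, against 7.04% of all genes. With library size alone and quantile normalization the list's Runx1 DN median against mock was -0.02 and 0, so the direction with Runx1 DN rests on the scaling. Uqcrfs1, a complex III subunit, had 134 and 113 CPM with Runx1 WT and 164 and 157 CPM with Runx1 DN, against 208 and 209 CPM with Satb1 and 197 and 203 CPM in mock. Cholesterol synthesis genes gave 13 of 20 shared and lower (median -0.56), against 16.4% over all genes, and 10 with 2 means. Dhcr7, an enzyme of the last steps, fell by 0.79 with no detectable difference between the constructs (Runx1 WT minus Runx1 DN 0.08, 95% interval -0.13 to 0.29). It had 75.4 and 66.6 CPM with Runx1 WT and 73.3 and 61.3 CPM with Runx1 DN, against 127 and 125 CPM with Satb1 and 113 and 114 CPM in mock. In the ATF4 and unfolded protein response list, 4 of 17 were shared and higher and 2 lower, against 17.2% and 16.4% over all genes. The 2 that fell, Psat1 (-1.13 ± 0.09) and Shmt2 (-0.85 ± 0.09), serve serine and one-carbon metabolism.

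**Figure D4:**
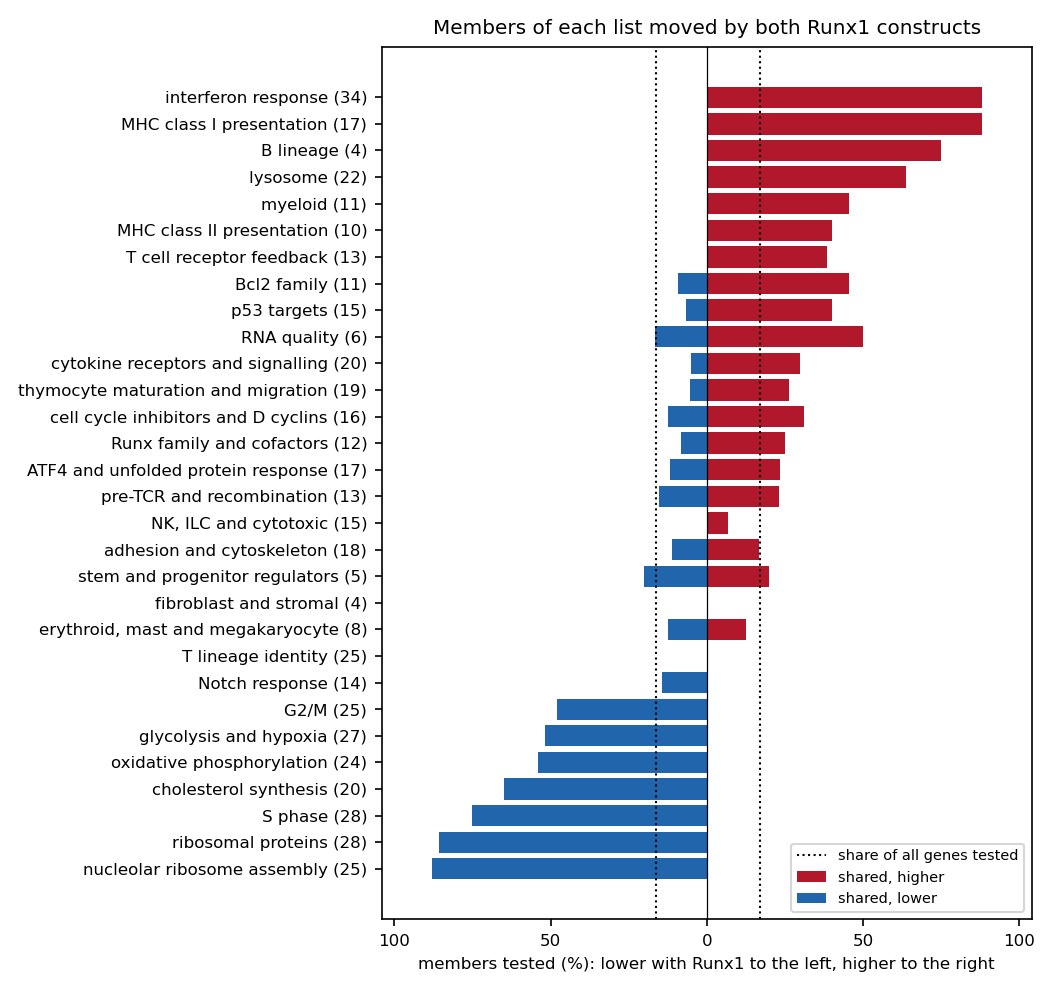
Share of each list's tested members that were shared and higher (right, red) or shared and lower (left, blue), with the number tested in brackets and dotted lines at the shares over all 12699 genes (17.2% higher, 16.4% lower). Interferon response and class I presentation reach furthest to the right and nucleolar and ribosomal protein genes furthest to the left, while T lineage genes have no shared member in either direction.

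The constructs did not move the T lineage genes together. Of 25 tested, none was shared, against 17.2% shared and higher and 16.4% shared and lower over all genes. Of the 25, 15 were higher than mock with Runx1 WT and lower than mock with Runx1 DN. As examples chosen after their values were seen, Gata3 had 657 and 655 CPM with Runx1 WT and 41.4 and 35.9 CPM with Runx1 DN, against 163 and 199 CPM with Satb1 and 186 and 232 CPM in mock, and Bcl11b had 1040 and 1130 CPM with Runx1 WT and 313 and 265 CPM with Runx1 DN, against 514 and 556 CPM with Satb1 and 504 and 500 CPM in mock. Over all 12699 genes, 590 were called higher than mock with Runx1 WT and lower than mock with Runx1 DN, and 215 the reverse. With the same calls also required against Satb1, the counts over all genes were 393 and 139. Among NK, ILC and cytotoxic genes 1 of 15 was shared and higher, against 17.2% over all genes. Of these 15 genes, 14 were higher than mock with Runx1 WT and 1 with Runx1 DN. In that list 1 gene was lower than mock with Runx1 WT and 6 with Runx1 DN. Fitted alone, those comparisons called 34.6% of all genes higher and 34.0% lower with Runx1 WT, and 18.4% and 16.9% with Runx1 DN. Of the 15, 6 were higher than mock with Runx1 WT and lower than mock with Runx1 DN. Of 14 Notch response genes, Il2ra and Myc alone were shared, both lower, against 16.4% shared and lower over all genes.

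Markers of other cell types were read beside these groups. Of 11 myeloid genes tested, 5 were shared and higher, against 17.2% over all genes. These were Tyrobp (3.6 ± 0.21), Ly6c2 (3.49 ± 0.28), Cebpb (1.49 ± 0.14), Csf1r and Cd68. Tyrobp, a signalling adaptor, had 2.71 and 2.32 CPM with Runx1 WT and 15.4 and 13.1 CPM with Runx1 DN, against 0.515 and 0.922 CPM with Satb1 and 0.227 and 0.415 CPM in mock. Csf1r stood at 2.89 and 2.14 CPM with Runx1 WT and 0.458 and 0.828 CPM with Runx1 DN, against 0.103 and 0.0636 CPM with Satb1 and no count in mock. The list of 19 summed to 217 to 223 CPM with Runx1 WT, 163 to 230 with Runx1 DN, 45.6 to 52.1 with Satb1 and 56.1 to 56.2 in mock. The defining markers Lyz2, Elane and Cebpa had 14, 3 and 3 counts over all 8 libraries. Outside the shared set, Spi1 (PU.1) had 0.357 and 0.322 CPM with Runx1 WT and 18.8 and 15.5 CPM with Runx1 DN, against 0.928 and 1.88 CPM with Satb1 and 0.227 and 1.05 CPM in mock, and is named after its values were seen. Of 4 B lineage genes tested 3 were shared and higher, Cd74, Vpreb1 and Cd79a, against 17.2% over all genes. Cd79a stood at 0.357 to 0.963 CPM with Runx1 WT and 0.499 to 0.540 CPM with Runx1 DN, against 0.192 to 0.340 CPM elsewhere. It was no longer called in 10 of the 18 other settings. Vpreb1 lost its call in 3 of them. The list summed to 35.6 and 37.6 CPM with Runx1 WT and 183 and 180 with Runx1 DN. Its sums were 15.5 and 19.4 with Satb1 and 7.30 and 10.5 in mock. The shared members were a small part of the Runx1 DN sums, with Cd74 at 2.70 and 2.16 CPM and Vpreb1 at 0.125 and 0.108 CPM. Most of those sums came from the other tested member, Cd22, which was not shared. The defining markers Pax5 and Ebf1 had 1 and 2 counts in all.

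Of the stromal list 0 of 4 tested members was shared, its sum was 101 and 109 CPM with Runx1 WT, 91.8 and 91.2 with Runx1 DN, 103 and 118 with Satb1 and 28.5 and 30.9 in mock, and Lum had no count. Of 8 erythroid, mast and megakaryocyte genes 1 was higher and 1 lower, against 17.2% and 16.4% over all genes. Hbb-b1, Pf4, Mcpt8 and Fcer1a were at 0 in every library. In 5 stem and progenitor genes 1 was higher and 1 lower, against the same shares over all genes. Of 18 adhesion and cytoskeleton genes, 3 were shared and higher and 2 lower, against 17.2% and 16.4% over all genes. Among the shared members were Itgal (0.60 ± 0.06), Lmna (1.96 ± 0.19), Itga6 (-1.31 ± 0.10) and Anxa2 (-0.55 ± 0.11). The part of other cell types in these values was not tested.

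Among 6 transcripts that vary with RNA handling, the nuclear RNAs Malat1 (1.21 ± 0.09) and Neat1 (1.38 ± 0.08) and the immediate early gene Fos (1.99 ± 0.30) were shared and higher, and the chaperone Hsp90aa1 was lower (-0.72 ± 0.05, adjusted p = 0.152 in the model with 2 means). Hsp90aa1 with Runx1 DN did not pass against mock (-0.13, adjusted p = 0.232). Malat1 had 1060 and 1410 CPM with Runx1 WT and 964 and 1100 CPM with Runx1 DN, against 492 and 442 CPM with Satb1 and 524 and 495 CPM in mock. These transcripts moved with the Runx1 groups, as the gene groups above did, and the part of RNA quality was not tested.

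The constructs acted with unequal size on the shared genes. Runx1 WT and Runx1 DN differed in 68.3% of all genes tested (34.8% higher and 33.5% lower with Runx1 WT). They differed in 60.9% of the shared genes higher and 75% of those lower, so unequal size was not particular to the shared genes. Of the 2181 shared genes higher, 1149 (52.7%) moved further with Runx1 WT, 179 (8.21%) further with Runx1 DN, and 853 did not pass the test. Of the 2081 lower, 1475 (70.9%) moved further with Runx1 WT, 86 (4.13%) further with Runx1 DN, and 520 did not pass. The median log2 fold change of shared genes higher was 0.973 against mock and 0.996 against Satb1 with Runx1 WT, and 0.524 and 0.538 with Runx1 DN. For shared genes lower the medians were -0.806 and -0.816 with Runx1 WT and -0.280 and -0.293 with Runx1 DN.

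**Figure D5:**
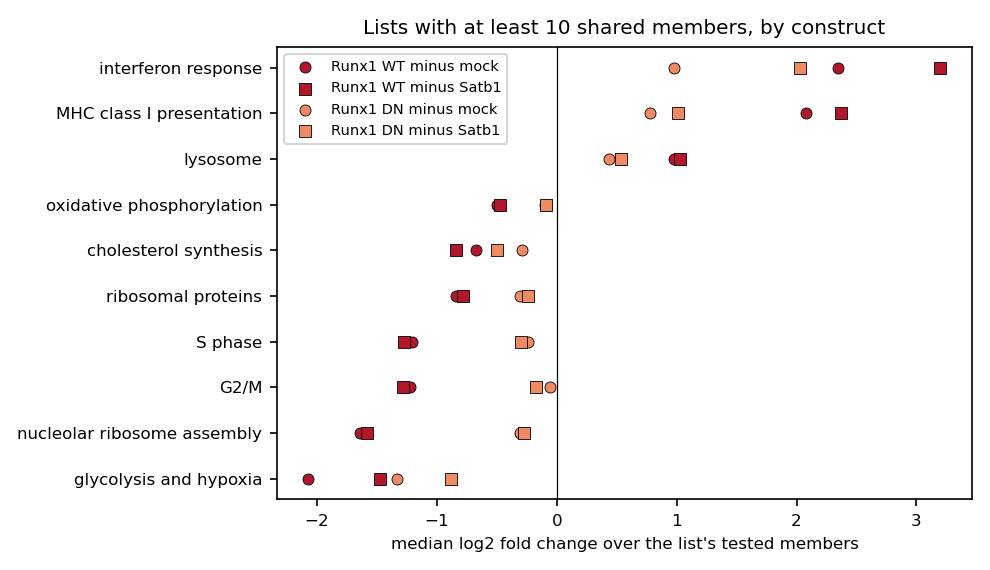
Median log2 fold change over the tested members of the 10 lists with at least 10 shared members, for Runx1 WT (dark red) and Runx1 DN (orange) against mock (circles) and Satb1 (squares). The Runx1 DN medians lie nearer to 0 than the Runx1 WT medians against the same group in all 10 lists, with the interferon list at 0.98 and 2.03 with Runx1 DN and 2.35 and 3.20 with Runx1 WT.

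Satb1 differed from mock in 6.36% of all genes tested, in 7.43% of the shared genes higher and in 2.74% of those lower. Of shared genes higher, 59 were higher and 103 lower with Satb1 than in mock. Of shared genes lower, 45 were higher and 12 lower with Satb1 than in mock.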

How the data were processed

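The authors deposited 1 table of raw counts per gene, 2 libraries in each of 4 groups, although its name speaks of RPKM. Per the file headers, counts were made with HOMER (analyzeRepeats, mm9, exons, genes condensed, no adjustment). Per the submitters' processing notes, STAR 2.4.0 and RSEM 1.2.25 were among the tools. Reads were single, 50 nt, from a kit that does not mark strand.

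Counts were fitted here with edgeR 4.0.16 (filterByExpr with a minimum count of 10, TMM scaling, 4 group means, quasi-likelihood test, Benjamini-Hochberg adjustment over 12699 of 24505 listed genes). Libraries were set apart on log2 CPM with a prior count of 2. Comparisons fitted alone used their own 4 libraries. The deposited counts gave totals of 23624498 to 33093330, and replicates of a group differed by more than sampling noise (chi-square per degree of freedom 10.3 to 23.0). The fit was tested on simulated data in which both constructs had equal effects and Satb1 equalled mock. That test does not bear on genes where the constructs differ.

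The genes named were, among shared genes with at least 2 CPM on their higher side and without predicted models, the 12 with the widest gap in each direction, and for each list with at least 3 shared members up to 4 with the smallest adjusted p. Runx1, Satb1 and the 2 genes just inside and outside a gap of 0 were added on each side. Other genes were named after their values were seen, to fill out counts or as overlaps. Some genes that this rule picks are not reported here. The members and lists were chosen with earlier results of these data known. Alternatives were other scalings, filters, DESeq2 1.42.0, limma 3.58.1, a replicate block, a model with 2 means and leaving out libraries. Promoter letters came from RefSeq (GRCm38.p6), which differs from the build of the counts (mm9), so no coordinates were converted.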

Additional observations from a re-analysis of the deposited data

Results flagged for a closer look

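Flagged were 3 of the genes with the widest gaps, which moved the same way with both constructs against Satb1 and mock. Their levels also differed between the constructs by an estimated 4-fold or more. The test asked only whether the constructs differed, not whether they differed by 4-fold, and the Ly6d interval reaches below that size. Ehd2 differed between Runx1 WT and Runx1 DN by 4.54 on the log2 scale (95% interval 4.07 to 5.0, adjusted p = 4.8e-08, edgeR's quasi-likelihood test), with the higher level in both Runx1 WT libraries. Hivep3 differed by 3.03 (2.67 to 3.40, adjusted p = 1.45e-07, edgeR), being lowest in both Runx1 DN libraries. Ly6d differed by 2.77 (1.81 to 3.73, adjusted p = 0.000242, edgeR), again with the lowest levels in both Runx1 DN libraries.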

How the results depend on the processing

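The number of shared genes kept within 1.5 times of 2181 higher and 2081 lower under other size factors, filters, DESeq2, robust variance estimates and without the Runx1 row. The median contrast of all genes was 0.156 with library size alone and -0.067 with quantile normalization, against 0.056 with TMM. Library size alone gave 1358 genes apart and lower, 1338 shared and lower, 532 lower in all 4 pairwise comparisons and 953 lower and larger with Runx1 WT. Shared genes were then 68.2% higher, against 51.2% with TMM and 44.1% with quantile normalization. The model with 2 means called 1487 genes higher and 778 lower and left 1426 and 773 shared, and it cannot give pairwise or Runx1 WT minus Runx1 DN values. Without the second mock and Satb1 libraries, 645 genes higher and 388 lower were called in all 4 comparisons. The cause of these changes was not tested.

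Leaving out 1 library at a time gave 4212 to 4339 genes called higher and 3703 to 3910 lower, 2397 to 2806 apart higher and 2232 to 2561 lower, and 2258 to 2606 shared higher and 2155 to 2431 lower. Calls in all 4 comparisons ran from 742 to 1000 higher and 450 to 1027 lower. Shared genes larger with Runx1 WT numbered 1024 to 1249 higher and 1360 to 1622 lower, and with Runx1 DN 140 to 204 and 65 to 101.

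The labels do not say that a replicate number marks a shared batch. For that reason the numbers were not used as a block in the reported fit. Same-numbered libraries deviated together with correlations of 0.07 to 0.19, and 0.39 for Satb1 with mock. Whether they share a batch was not tested. A replicate block gave 4813 genes called higher and 4149 lower, with 2190 and 2090 shared, of which 2179 and 2080 were shared without it. Of 120 named genes tested, 92 were called in every setting and none reversed. With quantile normalization, the contrast was 6.67 for Ehd2, 4.63 for Ifi44l and 4.04 for Csf1r, and the cause was not tested. At these depths a single library without a count allows a level of up to 0.0953 to 0.125 CPM.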
